A study of Mus musculus with 8 samples.

Results

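All 8 arrays of the study were compared here, the 7 arrays of induced pluripotent stem cells (iPSCs) together against the single array of embryonic stem cells (ESCs). Arrays were assigned by their sample labels: 4 carried the label OSKH iPSC, 3 the label OSK iPSC, which the study used as its control group, and 1 was the line B6J-23 ESC. All cells were described as undifferentiated and of the mouse strain C57BL/6J. The labels neither spell out OSK and OSKH nor give the cells that were reprogrammed, the culture conditions or whether the arrays of a group came from separate lines, so the p-values below measure only the spread between these samples. Total RNA was labelled with one dye (Cy3) and hybridised to Agilent oligonucleotide expression arrays, and the level of a probe is given here in log2 units, as its signal over the 75th percentile signal of the same array (1 unit is a factor of 2).

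Mouse ESCs and iPSCs share a self-renewing state held by Oct4 (gene Pou5f1), Sox2 and Nanog together with factors such as Klf4, Esrrb and Tfcp2l1. ESCs come from the early embryo, whereas iPSCs are made from a differentiated cell in which the silenced state of developmental, germline and imprinted genes has to be rebuilt. A small share of cells in such cultures passes through a state that resembles the embryo at its 2-cell stage and that is marked by the Zscan4 genes. Both kinds of cells are often grown on fibroblast feeder cells, whose collagens and other matrix genes then appear in the RNA.

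The 8 arrays lay on 1 slide and were scanned together. The ESC array and OSKH 1 to 3 occupied the first row of the slide, and OSKH 4 and the 3 OSK arrays the second. From 51.4% to 59.0% of the probes of an array stood well above background, no spot was saturated, and the 75th percentile of the signal lay between 424 and 501. After keeping probes well above background on at least 3 of the 8 arrays and the brightest probe of each gene, 22685 features remained, 14390 of them with a gene name. Pou5f1 and Sox2 were well above background on all 8 arrays. Pou5f1 stood at 6.41 on ESC and between 6.09 and 6.27 on the iPSC arrays, and Sox2 at 3.42 and between 2.96 and 3.61. All 35 genes of the list of core and naive pluripotency genes passed the filter, which asks for only 3 of the 8 arrays. OSKH 4 stood apart from the other iPSC arrays in lineage genes. Its level of the endoderm factor Foxa2 was 4.03, against 0.80 on ESC and at most -1.24 on the other 6 iPSC arrays. The mesendoderm gene T read 3.71 on OSKH 4, 0.21 on ESC and at most -1.22 on the other 6. Counts of the fibroblast list and of the mesendoderm list are given with and without OSKH 4. Those of the other lists include it.

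Differences between the iPSC arrays and ESC were mostly small, and none passed the test across all features. limma, with Benjamini-Hochberg adjustment over the 22685 features and a threshold of 0.05, called 0 features higher in the iPSC arrays (0% of those tested) and 0 lower (0%). At an unadjusted p under 0.05 it gave 420 higher and 680 lower. Together these are about the 1 in 20 of the features tested that chance gives at that threshold. The smallest adjusted p, 0.096, belonged to a probe without a gene name, which stood at -1.41 on ESC and between -4.21 and -3.60 on the iPSC arrays. With 1 ESC array the fit took that array to vary as the iPSC arrays do, and an exact permutation test of a single value could not go below 0.125. The genes below are therefore described by their levels, and none is reported as changed.

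All 7 iPSC arrays lay above ESC for 1836 features (8.09%) and below it for 4201 (18.5%). Most of these distances were short. Mean differences under 0.5 log2 units made up 62.4% of the features above ESC and 88.9% of those below. A mean difference of at least 2-fold was found in 167 features above ESC (0.736%; 96 of them named genes) and in 85 below (0.375%; 58 named genes). A distance of at least 2-fold between ESC and the nearest iPSC array remained in 29 features above (0.128%) and 11 below (0.0485%), of which 9 and 6 were named genes. The plot of iPSC mean against ESC shows these features on both sides of a narrow diagonal, the ones above ESC mainly at low ESC levels.

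**Figure D1:**
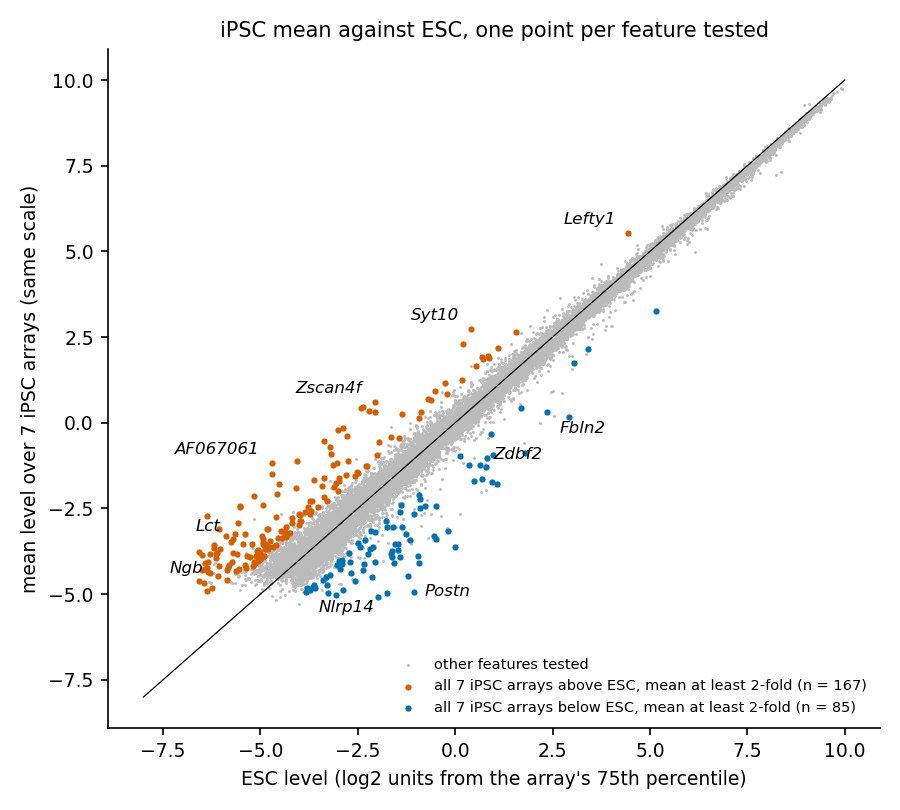
Mean level over the 7 iPSC arrays (y axis) against the ESC level (x axis), both in log2 units from the array's 75th percentile, for the 22685 features tested. Orange points are the 167 features with all 7 iPSC arrays above ESC and a mean difference of at least 2-fold, blue points the 85 below; the line marks equal levels and 10 genes of the text are labelled.

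The excess of features below ESC depended on brightness and on the scaling. When features were cut into 4 equal groups by mean level, 36% of the brightest group had all 7 iPSC arrays below ESC and 2.49% above, with a median difference of -0.11, whereas in the dimmest group the shares were 10.8% and 10.7%. After quantile normalization, which gives every array the same distribution, 2459 features lay above and 2875 below, so that the share above among same-side features was 46.1% in place of 30.4%, and the brightest group held 13% above and 13.8% below. Small differences of bright genes below ESC shift toward 0 under that scaling. Its values stand beside some of them below, and the shares of lists are to be read against 8.09% and 18.5%, or, for bright genes, 2.49% and 36%. The median difference of all features was -0.05 on the main scale and -0.01 after quantile normalization. By chromosome the median ran from -0.07 to -0.03 for the autosomes and X, so no chromosome other than Y, with 7 genes and a median of -0.18, lay far from the rest.

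**Figure D2:**
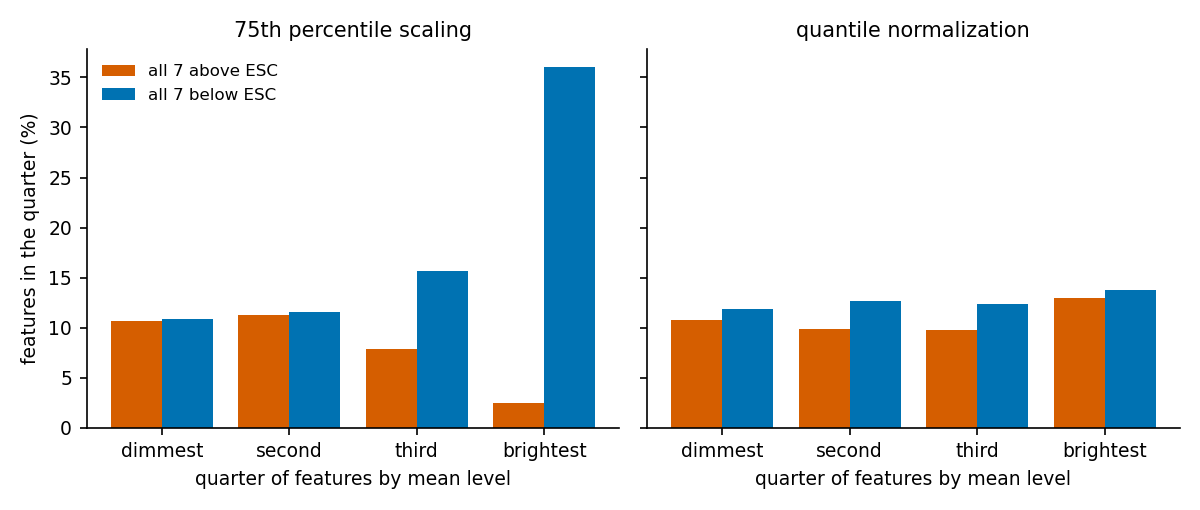
Share of features (%, y axis, from 0) with all 7 iPSC arrays above ESC (orange) or below ESC (blue), in 4 equal groups of the features by mean level (x axis), with the 75th percentile scaling on the left and quantile normalization on the right. The brightest group holds 36% below and 2.49% above on the left, and 13.8% and 13% on the right.

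The clearest on and off differences were probes seen on one side only. On ESC alone 162 probes were well above background (0.291% of 55667), which included 58 named genes, and on all 7 iPSC arrays but not on ESC 82 probes (0.147%), with 38 named genes. For these genes only a lower bound of the fold can be given. It sets the mean of the bright side over the lowest level called above background on the dim side, or over the probe's own signal there where that is higher. Most of these probes were dim. The median bound was 1.59-fold for the ESC-only probes and 1.66-fold for the iPSC-only probes, and 39 and 19 of them reached 2-fold.

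Mab21l1, on chromosome 3, a developmental gene of the eye, had the highest ESC level of the ESC-only genes, -0.17. On the OSKH arrays its signal read -4.96, -5.36, -5.50 and -5.20 and on the OSK arrays -6.28, -5.50 and -5.29, none of them well above background. ESC was thus at least 20.2-fold higher. Cts8, one of the placental cathepsin proteases, stood at -0.62 on ESC and between -6.63 and -5.28 on the iPSC arrays, at least 14.8-fold lower there. The non-coding gene Gm10512 (-0.99 on ESC, at most -5.98 on an iPSC array) and the olfactory receptor gene Olfr26 (-1.15 and at most -6.33) were at least 11.48-fold and 10.3-fold higher on ESC. All 4 genes were picked for a bright ESC signal with no iPSC array above background. That the OSKH and OSK arrays both read low follows from this choice. Vwa3a, A330041J22Rik, Xkr6, the chemokine gene Ccl12, Pramel5 of the Prame-like family and the circadian factor gene Arntl2 followed, with bounds from 5.8-fold down to 2.78-fold. Each rested on the 1 ESC array, and the first 9 of these 10 genes had a single probe.

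When a probe needed to be well above background on only 1 array to enter the fit, limma called 15 features lower in the iPSC arrays and 2 higher. Gm10512, Olfr26, A330041J22Rik, Mab21l1, Cts8 and Pramel5 were among the lower ones. They entered that fit through the ESC array, on which they had been selected as bright, so these calls are given as a count only and support nothing about the genes.

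AF067061 led the iPSC-only genes. It belongs to the genes expressed at the 2-cell stage, and its level was -4.69 on ESC, -2.83, -0.43, -2.39 and -2.93 on the OSKH arrays and -0.30, 1.41 and -0.65 on the OSK arrays, at least 8.81-fold higher in the iPSC mean. The other 9 iPSC-only genes named by level stayed dim. Unc5cl, Epx (eosinophil peroxidase), Plekha6, Slc18a1 (a vesicular monoamine transporter), Mzb1 (a plasma cell chaperone), Slc26a4 (an anion exchanger of the inner ear and thyroid), Prss38, D230030E09Rik and Myom3 (a sarcomere protein) had bounds between 1.78-fold and 2.65-fold. In Myom3 the signal of OSKH 2 (-4.06) was under that of ESC (-4.02) although only the former was called above background. Epx, for example, read -4.18 on ESC and between -3.74 and -2.16 on the iPSC arrays.

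**Figure D3:**
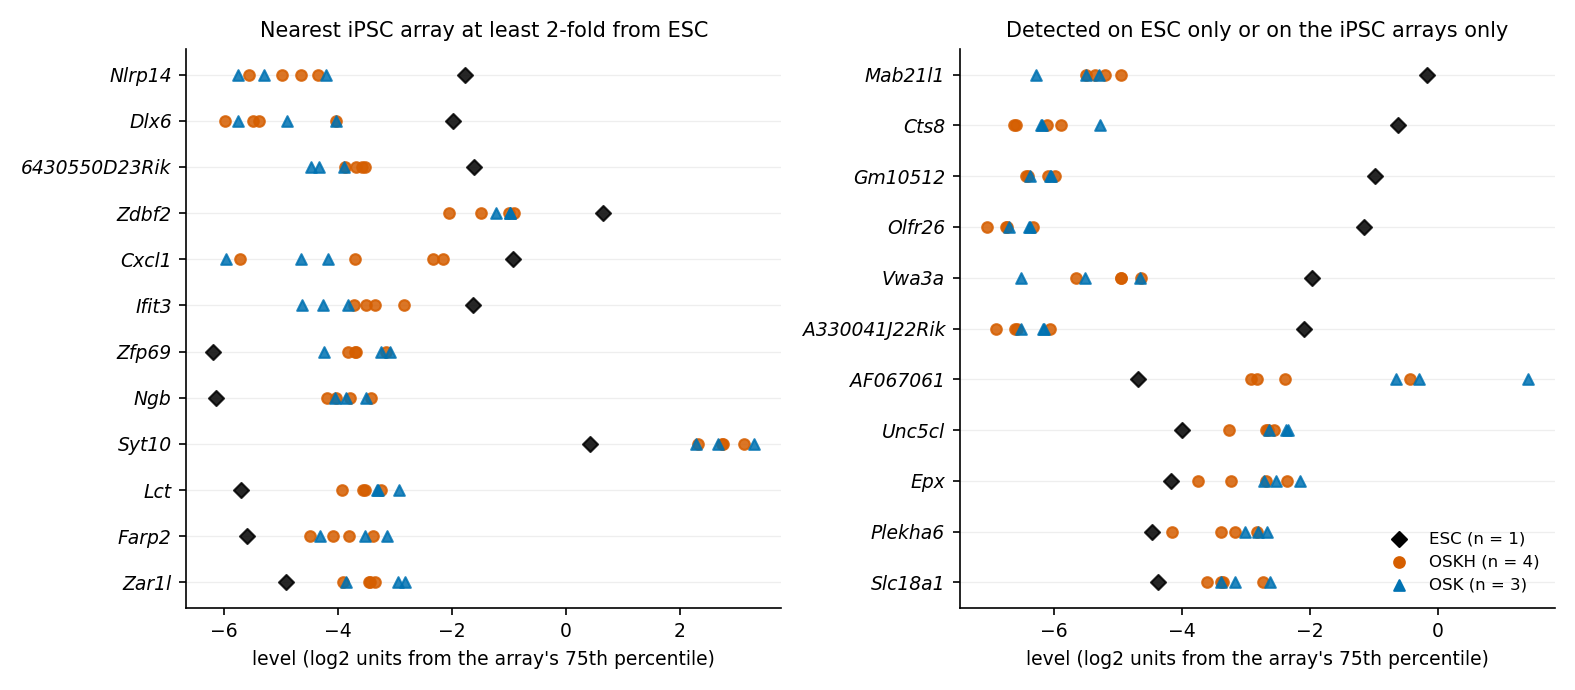
Level (log2 units from the array's 75th percentile, x axis) on every array for 12 named genes whose nearest iPSC array lay at least 2-fold from ESC (left) and for 11 genes well above background on ESC only or on the 7 iPSC arrays only (right). The black diamond is the ESC array, orange circles are the 4 OSKH arrays and blue triangles the 3 OSK arrays; no iPSC array reaches the ESC value of any gene shown.

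Syt10, on chromosome 15, was the named gene at least 2-fold above ESC on every iPSC array that was also bright on both sides. It encodes a synaptotagmin, a calcium sensor of vesicle release. Its level was 0.42 on ESC, 2.33, 2.75, 3.14 and 2.76 on the OSKH arrays and 3.31, 2.30 and 2.68 on the OSK arrays. Every iPSC array lay at least 1.88 units above ESC, and the OSKH and OSK values overlapped. The mean difference was 2.33 ± 0.36 (SE; limma adjusted p = 0.634), a 5.04-fold higher level, and it was 2.32 within the first slide row. A further bright feature, an array accession without a gene name, stood at 0.21 on ESC and between 1.86 and 2.76 on the iPSC arrays.

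Ngb (neuroglobin), Lct (the intestinal enzyme lactase) and Zfp69 (a zinc finger gene of the KRAB family) also had a wide distance to ESC, but ESC was not above background. Lct read -5.70 on ESC, -3.92, -3.55, -3.25 and -3.52 on the OSKH arrays and -3.31, -2.93 and -3.29 on the OSK arrays, all 7 well above background. It was at least 1.87-fold higher in the iPSC mean (limma adjusted p = 0.511). Ngb (-6.14 on ESC, -4.20 to -3.41 on the iPSC arrays) was well above background on 3 iPSC arrays and Zfp69 (-6.19, -4.24 to -3.08) on 5, with bounds of 1.38-fold and 1.66-fold. A second Ngb probe did not repeat the rise. It was well above background on 1 array only and differed by -0.19, with 2 iPSC arrays above ESC and 5 below. With a normexp background correction the differences of Lct, Ngb (first probe) and Zfp69 shrank to 0.63, 0.36 and 0.42. Farp2 and the oocyte gene Zar1l, chosen after their values were seen, were of the same dim kind, with bounds of 1.39-fold and 1.87-fold.

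Smaller and tighter differences were found in other genes with the smallest p above ESC. Spata1 differed by 0.90 ± 0.13 (SE), Serinc2, a serine incorporator gene, by 0.89 ± 0.16, Gpat2, an acyltransferase gene of the germline, by 0.84 ± 0.17, and Kansl1l by 0.82 ± 0.17. The zinc finger genes Zfp763 (0.60) and Zfp974 (1.03) and the phospholipase gene Pla2g4c (0.87) belonged to this set too. Of these, Zfp974 and Pla2g4c were not above background on ESC, with bounds of 1.98-fold and 1.15-fold. Pla2g4c was well above background on only 3 iPSC arrays. For Serinc2, all 3 probes lay above ESC on all 7 iPSC arrays, by 0.73 to 0.89.

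Zdbf2, on chromosome 1, was the bright gene with the widest distance below ESC. It is an imprinted gene expressed from the paternal allele, and its level is set in the early embryo by a transcript that starts upstream of it. Its level was 0.65 on ESC, -2.06, -0.90, -1.49 and -1.0 on the OSKH arrays and -1.22, -0.99 and -0.98 on the OSK arrays. All 7 iPSC arrays were well above background and lay at least 1.55 units under ESC. ESC was 3.7-fold higher, a difference of -1.89 ± 0.40 (SE; limma adjusted p = 0.97), which was -2.14 within the first slide row and -1.88 after quantile normalization. A second Zdbf2 probe lay below ESC on all 7 arrays too, by 1.53. A probe of the array's long intergenic RNA set, chr1:63319842-63349796 in mm9, also on chromosome 1, read 0.83 on ESC, -2.13, -0.65, -1.01 and -0.83 on the OSKH arrays and -0.95, -0.83 and -0.78 on the OSK arrays. OSKH 1 had the lowest value in both.

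Nlrp14 and Dlx6 had a wider distance but iPSC levels close to background. Nlrp14, an oocyte gene of the NLR family, read -1.76 on ESC, -4.66, -4.99, -4.35 and -5.56 on the OSKH arrays and -5.31, -5.76 and -4.21 on the OSK arrays. Of these 7 iPSC values 2 were well above background. The difference was -3.21 ± 0.56 (SE; limma adjusted p = 0.766), and -1.27 with normexp. Dlx6, a homeobox gene of the forebrain and jaw, stood at -1.98 on ESC and between -5.99 and -4.04 on the iPSC arrays. 6430550D23Rik lay below ESC by 4.91-fold on its brighter probe, while its second probe differed by 0.04, so the probes of that gene disagreed. With normexp the differences of Dlx6 and 6430550D23Rik were -0.79 and -0.53, in place of -3.11 and -2.30. Among the tighter differences below ESC were the X-linked gene Dcaf12l1 (-1.25 ± 0.29, SE) and Uvssa, a DNA repair factor (-0.79 ± 0.17). Med13 (a Mediator subunit), Ptar1, Trmt61b, Knop1 and the KRAB zinc finger gene Rsl1 had mean differences from -0.50 to -0.44, with all 7 iPSC arrays below ESC. The brightest of them, Knop1, differed by -0.33 after quantile normalization. Fam13c differed by -0.49 on its brighter probe and by 0.47 on the other.

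The genes of the 2-cell-like state included several of the widest differences above ESC. Zscan4 genes encode zinc finger proteins of the 2-cell embryo that act at telomeres in ESCs. Zscan4c read -3.02 on ESC, -2.20, 0.71, -1.11 and -1.37 on the OSKH arrays and 0.32, 2.21 and -0.06 on the OSK arrays. The iPSC arrays thus spanned more than 4 units, with OSKH 2 and OSK 2 highest and OSKH 1 closest to ESC. The mean difference, 2.80 ± 1.39 (SE; limma adjusted p = 0.97), is smaller than that span, and was 1.81 with normexp. In RNA of whole cultures, fewer cells of a type and less RNA per cell cannot be told apart. Zscan4f (-2.07 on ESC, -1.36 to 3.03 on the iPSC arrays) and Zscan4a (-2.77, -2.15 to 2.12) followed the same order of arrays at both ends. The copies are near-identical, so their probes may read one another's transcripts.

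Gm13043 and Pramel19, of the Prame-like gene family of the early embryo, went with them. Gm13043 read -2.40 on ESC, -1.37, 1.41, -0.60 and -1.17 on the OSKH arrays and 1.01, 2.90 and 0.79 on the OSK arrays. Pramel19 was not above background on ESC (-6.58) and read -5.34 to -1.56 on the iPSC arrays, at least 1.46-fold higher in their mean. Across the list of 31 genes of this state, 15 were tested, 11 were too dim and 5 had no probe. Of the 15, 4 lay above ESC on all 7 arrays (Zscan4a, Zscan4c, Zscan4f and Pramel19) against 8.09% of all features, and 2 below (Eif1a, by -0.31, and Zfp352, by -0.32; -0.19 and -0.24 after quantile normalization), against 18.5%. None was called. The list's median difference was 0.58, against -0.05 for all features, and it was 0.01 within the first slide row, 0.25 with normexp and 0.14 over the 8 genes well above background on all arrays. Tcstv1, another gene of the 2-cell stage, was well above background on 4 iPSC arrays and not on ESC. It read -6.27 on ESC, -6.43, -3.84, -6.81 and -6.08 on the OSKH arrays and -3.64, -2.09 and -3.91 on the OSK arrays.

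**Figure D4:**
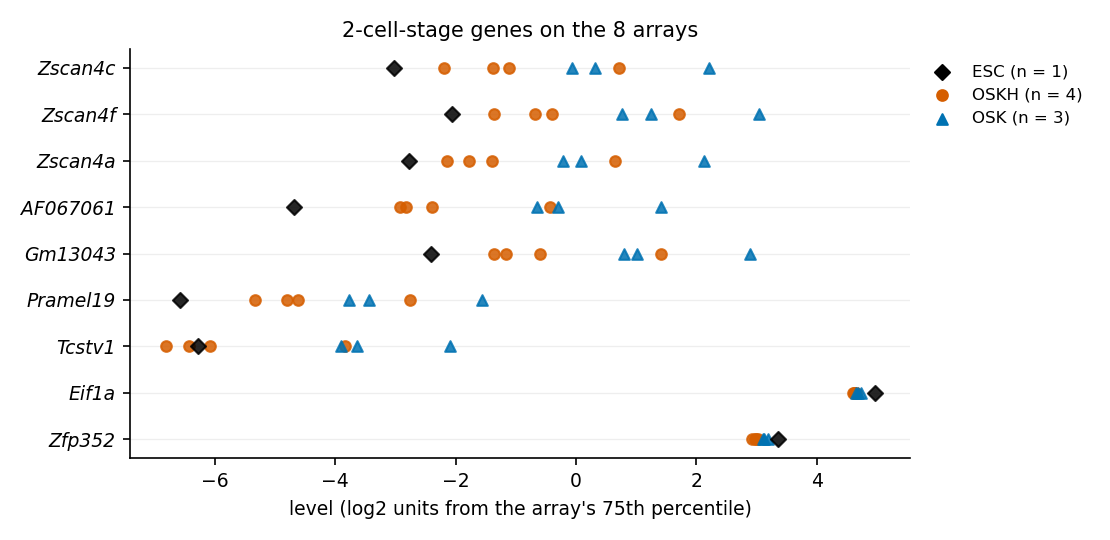
Level (log2 units from the array's 75th percentile, x axis) of 9 genes of the 2-cell stage on the ESC array (black diamond), 4 OSKH arrays (orange circles) and 3 OSK arrays (blue triangles). OSK 2 is the highest iPSC array and ESC the lowest array in Zscan4a, Zscan4c, Zscan4f, AF067061, Gm13043 and Pramel19, while Eif1a and Zfp352 lie slightly below ESC.

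The start regions of Zscan4c and AF067061 are shown, which both carry the run marked below. Both genes had their lowest level on ESC, as did Zscan4a, Zscan4f, Gm13043 and Pramel19. Each line gives 250 bases before and 50 after the transcription start, from RefSeq (GRCm38.p6, plus strand, chr7:11005495-11005794 and chr13:120262845-120263144), with the run TGATTCAAT in capitals. These letters are part of the motif of Dux, the factor that activates genes of the 2-cell stage, and were picked after the sequences had been read.
Zscan4c: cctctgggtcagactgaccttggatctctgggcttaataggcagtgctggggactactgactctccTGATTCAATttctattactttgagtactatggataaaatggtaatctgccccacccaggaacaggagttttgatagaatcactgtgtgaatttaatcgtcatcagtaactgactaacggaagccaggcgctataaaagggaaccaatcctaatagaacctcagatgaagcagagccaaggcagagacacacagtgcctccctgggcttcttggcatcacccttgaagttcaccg
AF067061: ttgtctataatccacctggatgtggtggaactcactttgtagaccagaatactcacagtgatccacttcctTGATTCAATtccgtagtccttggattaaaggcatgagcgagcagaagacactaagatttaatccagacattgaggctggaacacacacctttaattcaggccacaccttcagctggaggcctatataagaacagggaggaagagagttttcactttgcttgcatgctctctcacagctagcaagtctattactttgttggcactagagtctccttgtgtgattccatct
The run begins at base 67 and base 72. On either strand it occurs in 37 of 32851 promoters of the RefSeq table (0.113%), and of the 5 genes of this group that the table holds, 3 carry it (Zscan4c, Zscan4f and AF067061), while Pramel19 and Gm13043 do not. The other 84 genes named here that have an entry lack it. Over 277 overlapping bases the Zscan4c and Zscan4f windows were 99.3% identical, so they are not separate observations. A match of letters does not show binding. Because the run was picked from these sequences, its counts are a description and no test.

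Most pluripotency genes had iPSC arrays on both sides of ESC. Of the 35 genes, Lefty1 and Lefty2 lay above ESC on all 7 arrays and Fgf4, L1td1, Pou5f1 and Utf1 below, with none called. Both Lefty genes encode secreted inhibitors of Nodal. Lefty1 read 4.44 on ESC, 4.73, 6.13, 6.02 and 4.85 on the OSKH arrays and 5.75, 5.66 and 5.70 on the OSK arrays, a 2.15-fold higher mean. OSKH 1 and OSKH 4 were the nearest to ESC. Lefty2 differed by 0.71 ± 0.27 (SE; limma adjusted p = 0.97). Fgf4, the growth factor through which these cells prime themselves to differentiate, read 6.28 on ESC, 5.95, 5.32, 5.69 and 5.73 on the OSKH arrays and 5.84, 5.45 and 5.66 on the OSK arrays. Its difference of -0.62 ± 0.22 was -0.48 after quantile normalization. Pou5f1 (-0.22), Utf1 (-0.32) and L1td1 (-0.26) are bright, and after quantile normalization they differed by -0.08, -0.19 and -0.13.

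Factors of the naive state lay on both sides of ESC, with OSKH 1 the highest array. Klf4 read 3.52 on ESC and 3.69 on OSKH 1, but 1.69 to 2.65 on the other 6 iPSC arrays. Esrrb (5.97 on ESC, 6.86 on OSKH 1) and Nr0b1 (4.09 and 4.69) had the same form, with at most 5.76 and 3.52 on the other arrays. Without OSKH 1, 16 of the 35 genes lay below ESC on all 6 remaining arrays, against 23.7% of all features, and 2 above. For the brightest group of features the share below was 36% with all 7 arrays, and it is not given here without OSKH 1. OSKH 1 was singled out because it read high in these genes, so the larger count below follows in part from that choice. Sox2 differed by -0.25 ± 0.23, Nanog by -0.38 ± 0.39 and Zfp42 (Rex1) by -0.23 ± 0.34. The list's median was -0.31 (-0.19 after quantile normalization). Of 19 genes of the primed and formative states, Foxd3 (-0.50) and Tcf15 (-0.62) lay below ESC on all 7 arrays and none above. Among 26 genes of the response to the cytokine LIF, Bcl3 (-0.87) and Mycn (-0.22) lay below and none above, with a median of -0.32 over the list.

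Imprinted genes other than Zdbf2 showed little separation. Of 42 tested outside the Dlk1-Dio3 cluster, 3 lay above ESC on all 7 arrays (Slc22a18 by 0.53, Xlr3b by 0.51 and Zim3 by 0.50) and 5 below (Zdbf2, Gnasas1 by -0.58, Blcap by -0.47, Zrsr1 by -0.30 and Mcts2 by -0.25), with a median of -0.04. These are 7.14% and 11.9% of the list. Blcap read 2.74 on ESC and 2.17 to 2.43 on the iPSC arrays, and after quantile normalization Blcap and Mcts2 differed by -0.41 and -0.17. In the Dlk1-Dio3 cluster, whose maternal non-coding RNAs are silenced in some iPSC lines, Dlk1 read 1.29 on ESC, 0.00, 1.56, 1.40 and 1.03 on the OSKH arrays and 0.94, 0.85 and 1.47 on the OSK arrays. Mirg, a non-coding RNA of the cluster, read 4.41 on ESC and 2.69 to 4.84 on the iPSC arrays, lowest on OSK 2. Both genes had iPSC arrays on either side of ESC. Meg3 and Rian had no probe under these names among those used.

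Genes of the germline are held silent by DNA methylation in most somatic cells. Of 32 tested, 4 meiotic or germ cell genes lay above ESC on all 7 arrays, namely the cohesin subunits Rec8 and Smc1b, the chromosome axis gene Hormad1 and the RNA-binding gene Dazl. Rec8 read 2.36 on ESC, 2.61, 3.70, 3.74 and 2.70 on the OSKH arrays and 3.35, 3.78 and 3.10 on the OSK arrays, a difference of 0.93 ± 0.47 (SE; limma adjusted p = 0.97). Hormad1, Dazl and Smc1b differed by 0.89, 0.73 and 0.68, and in Smc1b the nearest iPSC array was 0.01 from ESC. Tex19.1 (-0.58; -0.47 after quantile normalization) and Brdt (-0.23) lay below. The 4 above are 12.5% of the list, against 8.09% of all features, and the 2 below 6.25%, against 18.5%. After quantile normalization 3 lay above, and with normexp 2, where Dazl differed by 0.24. The median over the list was -0.02.

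Fibroblast and feeder genes showed the lowest list median, -1.38 over 28 genes tested, with ESC and OSKH 4 high and the other 6 arrays low. The mean level of the list was 0.85 on ESC, 1.04 on OSKH 4 and between -0.97 and -0.49 on the other iPSC arrays. Col1a1, the main collagen of fibroblasts, read 1.34 on ESC, -1.38, -1.14, -1.25 and 1.72 on the OSKH arrays and -1.86, -1.18 and -1.01 on the OSK arrays. With OSKH 4 included, 7 of the 28 lay below ESC on all 7 arrays (Anxa1, Col6a3, Fbln2, Loxl1, Postn, Thbs2 and Twist2) and 1 above (Fbln1, by 0.33), against 18.5% and 8.09% of all features, and none was called. In Anxa1 and Col6a3 the nearest iPSC array, OSKH 4, was 0.04 and 0.06 from ESC. On a second Anxa1 probe 1 iPSC array lay above ESC and 6 below. Without OSKH 4, 19 of the 28 genes lay below, against 20.9% of all features, and the median was -1.64. With normexp the median was -0.98, and over the 19 genes well above background on all 8 arrays it was -0.60.

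Postn (periostin) read -1.06 on ESC, -4.24, -3.70, -6.08 and -1.91 on the OSKH arrays and -6.13, -6.14 and -6.39 on the OSK arrays. Only 2 iPSC arrays were well above background for it, and OSKH 4 was the nearest to ESC. Fbln2, a fibulin of the matrix, read 2.35 on ESC, 2.09 on OSKH 4 and -0.64 to 0.44 on the other 6. Thbs2, a thrombospondin, differed by -2.0 ± 0.75 and Col6a3 by -1.99 ± 0.83 (SE). With normexp Postn, Thbs2 and Col6a3 differed by -1.55, -1.18 and -0.98. Of the 37 genes listed, 9 were too dim to be tested, among them Pdgfra, Pdgfrb, Lum and Cdh11, while Col1a1 was well above background on all 8 arrays. Cxcl1, a chemokine gene that fibroblasts secrete, lay below ESC by at least 1.23 units on every iPSC array: it read -0.93 on ESC, -2.32, -5.72, -3.70 and -2.16 on the OSKH arrays and -4.18, -5.96 and -4.65 on the OSK arrays. Inhba, an activin subunit gene, was also highest on ESC and OSKH 4 (-1.48 on ESC, -1.59 on OSKH 4 and at most -3.40 elsewhere). The part of such cells in other differences was not tested.

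Interferon-induced genes were near the ESC level on the other arrays of the first slide row and lower on the second. Over 39 genes tested the list's mean level was 0.88 on ESC and 0.79 to 1.14 on OSKH 1 to 3, the arrays of the first row, and -0.30 to 0.29 on the 4 arrays of the second. The median difference was -0.40 over all arrays and 0.16 within the first row. OSK and the second row largely coincide, so row and reprogramming label cannot be told apart beyond OSKH 4. Ifit3, an antiviral effector, was lower on both rows. It read -1.63 on ESC, -3.72, -2.85, -3.50 and -3.36 on the OSKH arrays and -4.64, -4.26 and -3.82 on the OSK arrays, so that all 7 lay at least 1.22 units below ESC (-2.11 ± 0.56, SE; limma adjusted p = 0.97; -1.73 within the first row and -1.15 with normexp). The chemokine gene Cxcl10 (-0.93), Eif2ak2, the kinase that senses double-stranded RNA (-0.72), and Rsad2 (-1.37; -0.44 with normexp) also lay below on all 7, and Isg20 (0.56) above. With Ifit3, 4 of the 39 lay below (10.3%, against 18.5% of all features) and 1 above (2.56%, against 8.09%). In contrast Isg15 lay on both sides, at 3.85 on ESC, 2.73, 4.51, 4.53 and 2.02 on the OSKH arrays and 2.34, 1.26 and 1.66 on the OSK arrays. Of 26 genes of antigen presentation, Cd74, the invariant chain of class II molecules, lay above ESC (0.75 ± 0.27) and B2m, the light chain of class I, below (-0.56 ± 0.34).

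**Figure D5:**
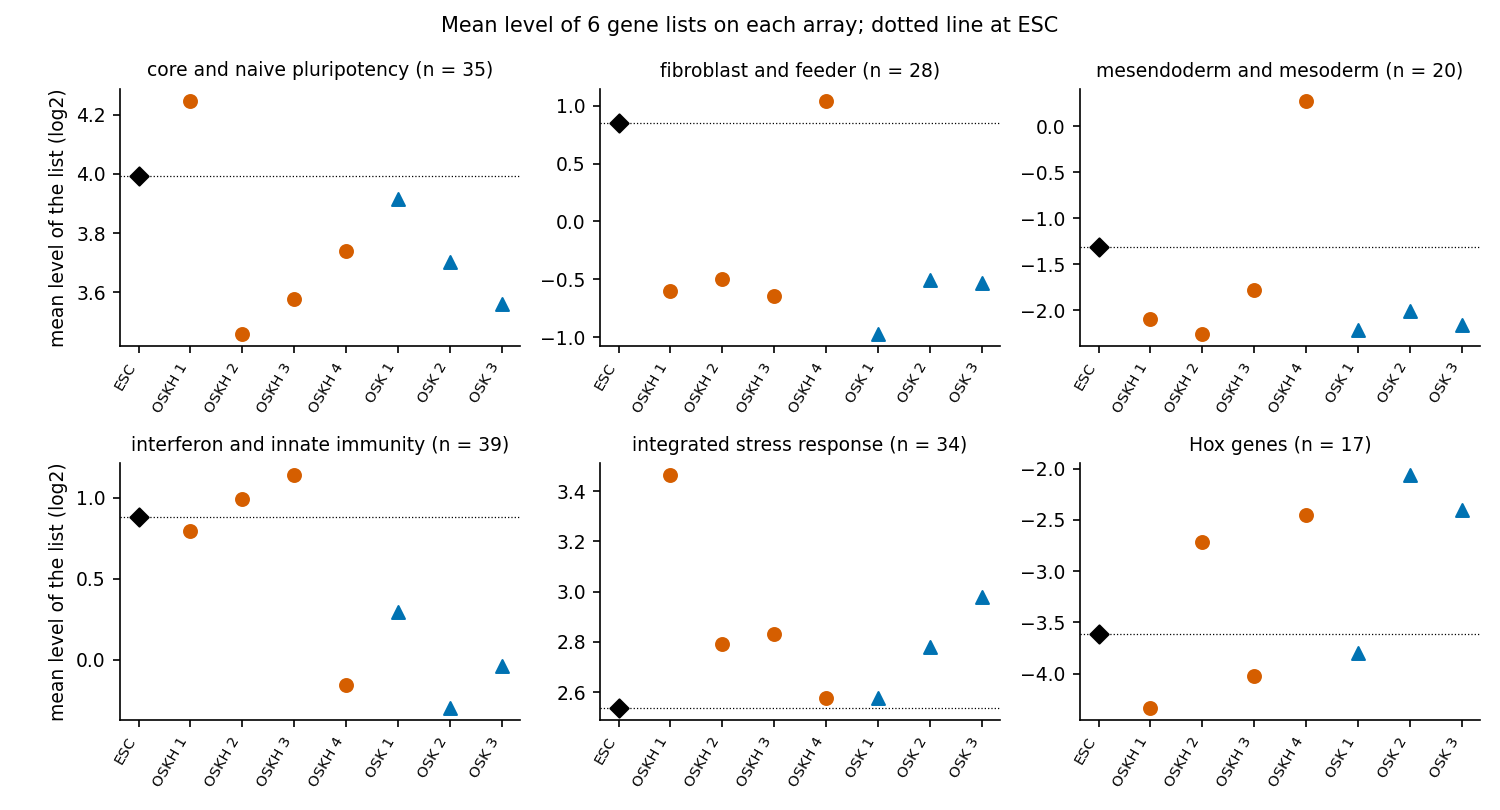
Mean level (log2 units from the array's 75th percentile, y axis) of the tested genes of 6 lists on each array (x axis), with the ESC array as a black diamond and a dotted line at its value, OSKH arrays in orange and OSK arrays in blue; the y axes differ and do not start at 0. OSKH 4 sits with or above ESC in the fibroblast and mesendoderm lists, the second slide row (OSKH 4, OSK 1 to 3) sits below the first in the interferon list, and OSKH 1 is highest in the stress list.

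Cell cycle and chromatin genes had small differences that depended on the scaling. Of 34 cell cycle genes, 13 lay below ESC on all 7 arrays (38.2%) and 2, Cdk2 and Rbl1, above (5.88%). The shares were 18.5% and 8.09% of all features, and 36% and 2.49% of the brightest group of features. After quantile normalization 8 lay below and 3 above, against 12.7% and 10.8% of all features. The median went from -0.13 to -0.04. Ccne1, the cyclin of S phase entry, read 6.90 on ESC and 6.33 to 6.55 on the iPSC arrays (-0.44 ± 0.11; -0.29 after quantile normalization). Cdk1, the kinase of mitotic entry, differed by -0.37 (-0.30), Ccnb1, its cyclin, by -0.37 (-0.24), and Plk1 by -0.16 (-0.02). The dimmer Cdk1 probes differed by -0.55 and by 0.08. Among 44 genes of DNA methylation and chromatin, 11 lay below (25.0%) and 1 above (2.27%). The share below lies between that of all features, 18.5%, and that of the brightest group, 36%. After quantile normalization 8 lay below and 4 above, against 12.7% and 10.8% of all features. The histone methyltransferase gene Ehmt1 differed by -0.46 (-0.35 after quantile normalization) and the corepressor gene Trim28 by -0.21 (-0.07). A second Ehmt1 probe differed by only -0.03, with 3 iPSC arrays above ESC and 4 below. The brighter 2 of 3 probes of Ezh1, a Polycomb methyltransferase gene, lay above ESC on all 7 arrays, by 0.37 and 0.40.

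Linker histone genes lay on both sides of ESC. None of the 8 tested had all 7 iPSC arrays on one side. H1f8, the linker histone of the oocyte, read -1.35 on ESC, -1.24, -1.70, -1.16 and -1.27 on the OSKH arrays and -1.33, -1.67 and -1.55 on the OSK arrays, a difference of -0.06 ± 0.22 (SE; limma adjusted p = 0.996). H1f4 and H1f5 differed by -0.34 and -0.16.

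Of 49 genes of the Wnt, FGF, BMP and TGF-beta pathways, 7 lay below ESC on all 7 arrays (Fgf4, Etv4, Spry2, Spry4, Inhba, Lrp6 and Smad7; 14.3%, against 18.5% of all features) and 3 above (Lefty1, Lefty2 and Wnt6; 6.12%, against 8.09%). Etv4, a transcription factor gene that FGF signalling induces, read 4.83 on ESC, 4.50, 3.86, 3.78 and 4.18 on the OSKH arrays and 4.27, 4.29 and 4.36 on the OSK arrays (-0.65 ± 0.26; -0.54 after quantile normalization). Spry4, a feedback inhibitor of the same pathway, differed by -0.63 ± 0.22 and Spry2 by -0.27 ± 0.19. Bmp4 lay on both sides, with 2.75 on ESC, 2.79 and 2.21 on OSKH 1 and OSKH 4 and at most 0.53 elsewhere. Of 18 retinoic acid and lipid genes, Crabp2, a retinoic acid carrier, lay above ESC (0.52 ± 0.20), and Cyp26b1, which degrades retinoic acid, below (-1.78 ± 0.81; -0.79 with normexp), as did the receptor gene Rarg (-0.37).

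Genes of the amino acid stress response included several above ESC, with OSKH 1 highest. Of 34 genes of the integrated stress response, 6 lay above ESC on all 7 arrays (Aldh18a1, Atf3, Chac1, Fgf21, Gdf15 and Nupr1) and 2 below (Slc1a4 and Slc7a5). These are 17.6% and 5.88% of the list, against 8.09% and 18.5% of all features. After quantile normalization 13 lay above and 1 below, with 10.8% and 12.7% of all features. On the main scale the nearest iPSC array was 0.02, 0.07 and 0.12 from ESC in Atf3, Gdf15 and Chac1. In Aldh18a1 and Nupr1 it was 0.24 and 0.47 from ESC. Fgf21 was well above background on 4 iPSC arrays and not on ESC, with a bound of 1.28-fold. Chac1, which degrades glutathione, read 2.70 on ESC, 6.02, 3.39, 3.13 and 2.82 on the OSKH arrays and 2.98, 3.29 and 3.82 on the OSK arrays. Nupr1, a stress-induced transcriptional regulator, read 1.92 on ESC and 2.39 to 3.91 on the iPSC arrays. Without OSKH 1 the median of the list went from 0.15 to 0.11. Aldh18a1, an enzyme of proline synthesis, differed by 0.45 ± 0.16. Of 31 p53 targets and apoptosis genes, Trp53inp1 (0.63), Ddit4 (0.90) and Apaf1 (0.44) lay above and Bak1 (-0.24) and Bcl2l11 (-0.31) below, though a second Trp53inp1 probe differed by 0.07. Vegfa, Ddit4 and Ero1a lay above and Higd1a, Ldha and Pfkfb3 below among 37 hypoxia and glycolysis genes. The unfolded protein response gave 2 of 23 above (Herpud1 and Sdf2l1).

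Lineage genes gave few same-side differences. In Foxa2, OSKH 4 was the only iPSC array above ESC, and no endoderm gene of 16 tested had all 7 arrays on one side. In mesendoderm and mesoderm 1 of 20 did (Snai1, above ESC by 0.93), and the list's mean was -1.31 on ESC, 0.28 on OSKH 4 and -2.26 to -1.78 on the other 6 arrays. Without OSKH 4, 8 of the 20 lay below ESC on all remaining arrays, against 20.9% of all features. OSKH 4 was also the highest array of the fibroblast list, whose part in these values was not tested. Eomes, a T-box factor of mesendoderm, read 0.49 on ESC, -1.60, -1.63, -0.06 and 2.53 on the OSKH arrays and -2.08, -2.17 and -2.17 on the OSK arrays. Gsc, a factor of the embryonic organiser, read -1.73 on ESC, 2.59 on OSKH 4 and at most -3.78 elsewhere. Of 19 trophectoderm genes, Esx1, a placental homeobox gene on X, lay below ESC (-0.96 ± 0.38) and so did Prl3d1, a placental lactogen gene (-0.52 ± 0.31). One of 24 ectoderm and neural genes, Trp63, lay below (-0.20), and 2 of 16 blood and endothelium genes, Lyl1 (0.53) and Tal1 (0.53), lay above.

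Hox genes, which order the body axis, were dim on all arrays, and 22 of 39 were not tested. Of the 17 tested none had all 7 iPSC arrays on one side. The list's mean was -3.61 on ESC, below it on OSKH 1, OSKH 3 and OSK 1 and above it on the other 4 arrays. Hoxb4 read -3.21 on ESC, -3.47, -0.80, -2.70 and -2.22 on the OSKH arrays and -2.17, -0.29 and -0.29 on the OSK arrays. Among 23 telomere genes, 5 lay below ESC (21.7%, against 18.5% of all features), namely the shelterin genes Pot1a (-0.33 ± 0.11; -0.26 after quantile normalization), Pot1b and Terf2 and the telomerase-associated Dkc1 and Nhp2. Zscan4c and Terc, the telomerase RNA, lay above (8.7%, against 8.09%). Among sex chromosome genes, Ddx3x and the Y-linked Eif2s3y (-0.41 ± 0.19) lay below. Y-linked Ddx3y was at 1.61 on ESC and 1.19 to 1.71 on the iPSC arrays, and Xist was too dim to be tested.

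OSKH and OSK arrays were pooled above. limma called none of the 84 genes named for their p, from a list or as core factors (the ESC-only and iPSC-only genes not counted) between the OSKH and OSK arrays, with 0.536 as the smallest adjusted p. The count over all features is not given here, so this says nothing particular to these genes. It does not show that the OSKH and OSK arrays were alike.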

How the data were processed

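Total RNA of 8 samples was hybridised to 8 one-colour Agilent arrays on 1 slide. Per the file headers, the authors' deposited intensity values are processed signals of Agilent Feature Extraction 11.5.1.1, background-subtracted and detrended within each array, not scaled between arrays, with flags of 0 or 1 for signal well above background; the design's coordinates are mm9. The authors' deposited value table holds log2 intensity minus a constant per array, set by comparison with the scanner files, and served as an alternative.

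Control and outlier spots were left out, spots of a probe averaged, log2 signal taken minus the array's 75th percentile, and 55667 probes kept, of which 27650 carried a gene name. Probes with that flag on 3 or more of the 8 arrays, reduced to the brightest probe of each gene, were fitted with limma 3.58.1 in R 4.3.3 (iPSC against ESC, Benjamini-Hochberg over 22685 features). The fitting steps were tested on simulated data. A fold "at least" divides the bright mean by the higher of the dim probe's signal and the lowest signal called above background. The ESC array's residual is 0 in this fit, so its spread is that of the iPSC arrays.

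Genes named by rule were, among same-side genes, the 12 with the smallest p on each side (none was called), the 10 highest ESC-only and the 10 highest iPSC-only genes, the 2 list members with the smallest p in each of 28 lists, and core factors and genes of the Dlk1-Dio3 cluster. Further genes with values were picked later, with their values in view. The comparison, the lists and the members were chosen with earlier results of these data known. Alternatives were normexp (on median signals, the only raw signals used here), quantile and median scaling, other filters, the mean over probes, slide row, each iPSC group alone, and each iPSC array left out. Promoters are from RefSeq (GRCm38.p6), with 89 of 111 genes matched by symbol, and were not compared with mm9 coordinates. Some genes that the rule or the lists name are not reported here.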

Additional observations from a re-analysis of the deposited data

Results flagged for a closer look

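Among the 84 genes named for their p, from a list or as core factors and the 28 list means, 1 iPSC array lay far from the rest in 17 of 224 groups tested. Its gap to the nearest other array, divided by the range of the group, exceeded Dixon's 95% critical value for groups of 7 (all iPSC arrays) or 4 (OSKH). Chance gives about 1 in 20 per group. The groups share arrays and genes, so whether 17 exceeds chance was not tested. OSKH 4 accounted for 9 of the 17 and OSKH 1 for 5.

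OSKH 4 stood high in Foxa2 (4.026), in Fbln2 (2.088) and in Col4a2, a basement membrane collagen (-0.1961). Its mean over the list was 1.299 for endoderm, 0.2761 for mesendoderm and mesoderm, 1.043 for fibroblast and feeder genes (among the 7 iPSC arrays and among the 4 OSKH arrays), 1.611 for Wnt, FGF, BMP and TGF-beta signalling and 1.578 for retinoic acid and lipid handling. OSKH 1 stood high in Tyrobp (-1.787), in Herpud1 (3.333, among 7 and among 4 arrays), in Snai1 (0.7743, among 4) and in the germline list (0.7828, among 4). OSKH 3 stood low in Kansl1l (-2.171) and in Prl3d1 (-3.963, among 7 and among 4).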

How the results depend on the processing

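No paired analysis was possible because the single ESC array carries no replicate number. Counts of features called stayed at 0 under every alternative run except the filter of 1 array above background, which gave 2 higher and 15 lower. All iPSC arrays lay above ESC for 3979 features within the first slide row and 5460 with OSK alone, and below it for 6780 and 8083, with fewer arrays to satisfy. ESC-only probes numbered 686 with OSK alone and 261 without OSKH 3; iPSC-only probes 611 within the first row, 178 with OSKH alone, 309 with OSK alone and 181 without OSKH 4. Leaving out 1 iPSC array gave 1954 to 2648 features above, 4408 to 5382 below, 166 to 261 ESC-only and 82 to 181 iPSC-only probes, and 0 to 0 calls; the smallest adjusted p of limma over the remaining arrays was 0.0535, without OSKH 1.

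Features at least 2-fold above and below numbered 35 and 38 with normexp, against 167 and 85. They were 321 and 214 with the 1-array filter, 65 and 34 with the filter on all 8 arrays, 250 and 166 within the first row, 359 and 377 with OSK alone, 193 and 139 without OSKH 1 and 213 and 165 without OSKH 4. The share above among same-side features was 30.4%, 46.1% with quantile normalization, 26% with the array median and 23.8% with normexp. Over 143 genes and 19 alternatives, 2 of 2687 values reversed, H1f8 (0.0103) and Krt8 (0.30), both with OSKH alone; the cause was not tested. One ESC array and signals near background limit the precision of every difference.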

Other observations

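Features without a gene name also had all iPSC arrays on one side of ESC. A probe for chr4:35106125-35127700 (mm9) read -3.20 on ESC and -1.30 to -0.07 on the 7 iPSC arrays, all of them above ESC.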
